A study of Mus musculus with 4 samples.

Results

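The pyruvate dehydrogenase switch was followed in mouse hearts through 10 genes: the kinase genes Pdk1, Pdk2 and Pdk4, the phosphatase gene Pdp1, the complex subunits Pdha1, Pdhb and Dlat, the mitochondrial pyruvate carrier genes Mpc1 and Mpc2, and Map3k15, whose row faces Pdha1 on the opposite strand. They were taken by symbol, summing the counts of all RefSeq transcripts of each, from 24847 genes in the count files, of which 9314 held a count in any library. Hearts of 12-week-old mice were sequenced in 4 libraries, 1 per group, each from RNA of 3 hearts combined. In the first pair, both labelled C57BL/6, nontransgenic mice (NTG) stand beside the hypertrophic cardiomyopathy model, whose transgene carries the 25-bp variant of MYBPC3 (cMyBP-CΔC10mut, library dC10mut). The second pair holds cMyBP-C(t/t) mice (tt), the dilated cardiomyopathy model, and control mice (control), both labelled FvB/N. Cardiac myosin binding protein C, which both models carry in altered form, is part of the sarcomere's thick filament. The promoter of the transgene is not given in the sources used here. Since a group is 1 pooled library, differences within a pair are not replicated, and the intervals below describe counting error alone.

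The pyruvate dehydrogenase complex sits in the mitochondrial matrix and turns pyruvate into acetyl-CoA, which commits carbon from glucose and lactate to oxidation. Pyruvate enters through the carrier built of MPC1 and MPC2. The E1 enzyme (PDHA1 and PDHB) decarboxylates it, the E2 core (DLAT) passes on the acetyl group, and E3 (DLD), tethered by the binding protein PDHX, reoxidises the core. The kinases PDK1 to PDK4 phosphorylate PDHA1 and switch the complex off, and the phosphatases PDP1 and PDP2 remove the phosphate and switch it on. In heart, Pdk4 is known as the fuel-responsive kinase gene, raised in fasting and by fatty acids through PPAR-alpha and by FOXO factors and glucocorticoids, and lowered by insulin. MAP3K15 is a protein kinase of stress signalling with no place in this pathway.

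Library totals ran from 170543 to 187365 counts, so that 1 count equals 5.19 to 6.24 CPM (counts scaled by TMM to a common library total, the unit of all levels below). Genes whose exons face exons on the opposite strand were 21.1% of those the annotation places and held between 65.1% and 68.7% of the counts. Genes with 2 or more transcripts in the files reached a mean of 10 counts in 2.18% of cases, against 9.55% of genes with 1 transcript. Of 9 cardiomyocyte markers, 8 held a count: the ventricular light chain gene Myl2 had between 2405 and 3520 counts and Actc1 between 906 and 1403, while Myh6, the main myosin heavy chain gene of the adult mouse heart, held 0, 0, 0 and 1, and Tnnt2 was at 0. Counts of the Xist locus (Xist and Tsix) were 155 in dC10mut and 173 in tt, and 0 in NTG and control, so sex and genotype of the pools cannot be told apart in either pair.

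The library kit keeps strand, but whether the counting used it, and in which direction, is not given in the sources used here. At the Xist locus, Tsix, the gene antisense to Xist, held 147 counts in dC10mut and 159 in tt, where Xist itself, the RNA that coats the inactive X chromosome, held 8 and 14. Map3k15 was the top row of every library, while Myh6 was at or near 0. Whether a row holds reads from the strand of its own gene or from the opposite strand was therefore not settled, for Pdk4, Pdhb, Dlat and Mpc2 as for Pdha1 and Map3k15. Every level and ratio below is that of a row under its gene's name, and is not shown to be that of the gene's mRNA.

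Of the 10 genes, 8 held a count somewhere and 6 held at least 20 counts in every library: Pdk4, Pdha1, Map3k15, Pdhb, Dlat and Mpc2. Each of these 6 has 1 transcript in the files. The other 4 have several, and all 4 stayed under 20 counts. Pdk1 (2 transcripts) and Pdp1 (5 transcripts) were at 0 in all libraries, which allows up to 18.7 CPM in NTG and 16.0 in dC10mut, and up to 16.5 in control and 15.6 in tt. Pdk2 held 3, 0, 0 and 1 counts in NTG, dC10mut, control and tt, and Mpc1 held a single count, in dC10mut. How the counting treated reads shared between transcripts of a gene is not given in the sources used here, so these 4 genes are not measured at this depth, and nothing is read from their zeros. Of the kinase rows Pdk4 alone could be compared, and no phosphatase row could, within the limit on strand given above.

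Pdk4 was the gene of the switch that differed most, and it was lower in both mutant libraries. It lies on the minus strand of chromosome 6 (chr6:5483351-5496309, GRCm38), with 11 exons and a transcript of 3484 bp, and no exon of another gene faces it. The 250 bases before its start are shown next to those of Pdha1, the subunit its product phosphorylates, and of Cox20, the gene with the most similar pattern over the libraries, so that the starts of the kinase, its substrate and a gene that moved alike can be compared. The windows are RefSeq promoter sequence of GRCm38.p6, printed 5′ to 3′ on the strand of the gene, at chr6:5496279-5496528 (minus), chrX:160138431-160138680 (minus) and chr1:178318903-178319152 (plus). Capitals mark CCAAT, the box bound by NF-Y, read on either strand.
Pdk4: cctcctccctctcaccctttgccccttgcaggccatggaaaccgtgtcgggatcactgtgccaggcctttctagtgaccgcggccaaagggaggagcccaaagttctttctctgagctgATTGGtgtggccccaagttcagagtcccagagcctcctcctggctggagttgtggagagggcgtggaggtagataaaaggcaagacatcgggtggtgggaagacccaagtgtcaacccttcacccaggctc
Pdha1: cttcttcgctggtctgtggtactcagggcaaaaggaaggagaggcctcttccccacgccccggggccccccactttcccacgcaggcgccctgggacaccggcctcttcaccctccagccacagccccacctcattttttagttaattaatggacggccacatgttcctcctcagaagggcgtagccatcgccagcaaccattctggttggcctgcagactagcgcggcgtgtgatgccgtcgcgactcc
Cox20: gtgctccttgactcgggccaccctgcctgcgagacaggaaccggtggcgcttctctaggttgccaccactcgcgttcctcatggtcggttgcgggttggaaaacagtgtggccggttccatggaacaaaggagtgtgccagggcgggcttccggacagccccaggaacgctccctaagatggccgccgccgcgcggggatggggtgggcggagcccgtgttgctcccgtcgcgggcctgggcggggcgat
The Pdk4 window holds 1 CCAAT, on the reverse strand, and the others printed hold 0, while 33.8% of 32851 windows of the same length hold at least 1. The same box, read on either strand, also lies upstream of Pdk2, Pdhb, Mpc1 and Mpc2. It thus does not set Pdk4 apart among the genes of the switch. This motif was chosen after the sequence was read. The Pdk4 window has 6 CpG dinucleotides, the median of all windows being 6.00, against 15 for Pdha1 and 24 for Cox20. Over the 300 bases from 250 before to 50 after the start, none of the 11 entries of 8 of the genes holds the forkhead letters GTAAACA (in 3.65% of all such promoters), the PPAR and RXR repeat (AGGTCA, any 1 base, AGGTCA; 0.0396%), the ERR letters TCAAGGTCA (0.423%) or the glucocorticoid receptor palindrome (AGAACA, any 3 bases, TGTTCT; 0.00913%), searched on both strands. That says only that these letters are not in this window.

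Pdk4 held 78 counts in NTG and 28 in dC10mut, and 113 in control and 46 in tt. As levels these are 487 CPM in NTG (95% exact Poisson interval 385 to 607), 150 in dC10mut (99.4 to 216), 621 in control (512 to 747) and 239 in tt (175 to 318). Both mutant libraries lie under both control libraries, and no interval of a mutant library reaches that of a control library. Pdk4 was 3.21-fold lower in dC10mut than in NTG (log2 ratio -1.68, 95% counting interval -2.38 to -1.06) and 2.58-fold lower in tt than in control (log2 ratio -1.37, -1.91 to -0.87). In bulk hearts, fewer cells that carry a transcript and less of it per cell cannot be told apart.

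In order, the level ran from control through NTG and tt to dC10mut. Control and NTG, the neighbours at the top, did not differ beyond counting error (log2 ratio 0.35, -0.08 to 0.79). Neither did tt and dC10mut at the bottom (log2 ratio 0.66, -0.03 to 1.41). The step between NTG and tt exceeded it (log2 ratio of tt to NTG -1.02, -1.59 to -0.48), though these libraries also differ in strain label. The Pdk4 ratios of dC10mut to NTG and of tt to control differed, the first minus the second, by -0.31 on the log2 scale (SE 0.40, 95% interval -1.11 to 0.48, normal approximation of the counting error), an interval that includes 0.

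**Figure D1:**
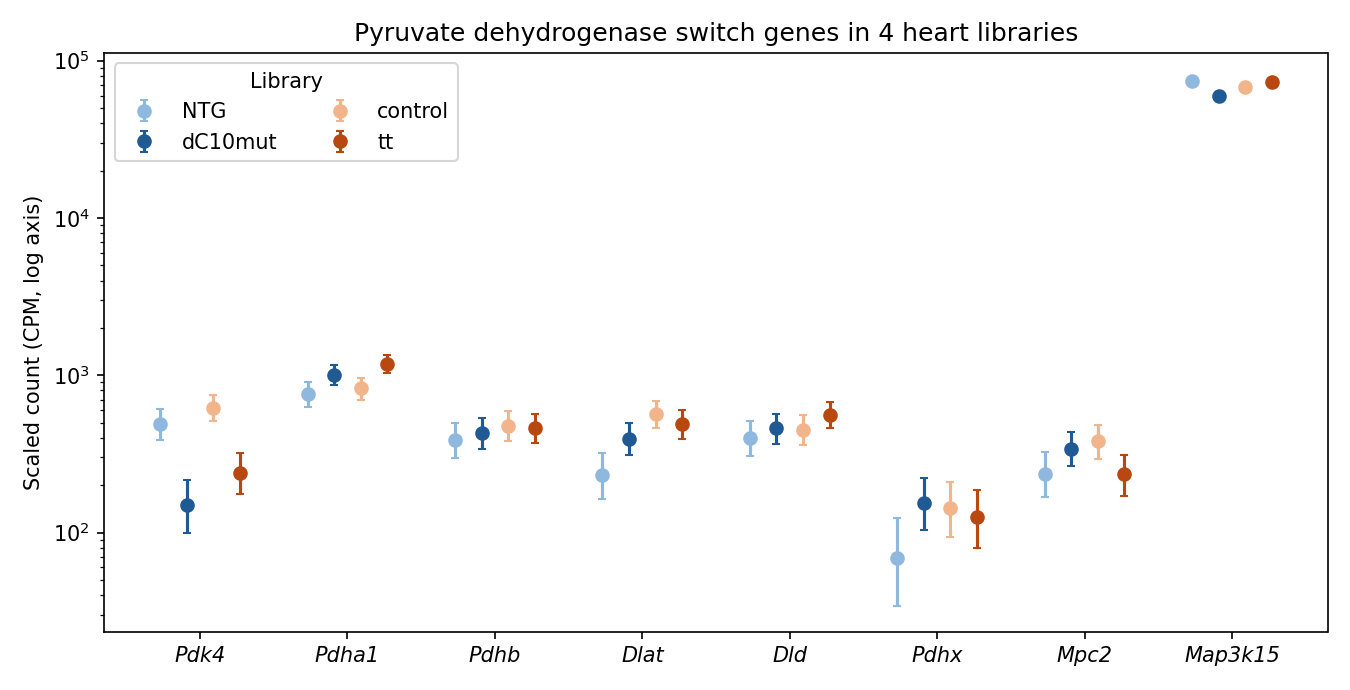
Scaled counts (CPM, log axis) of 8 genes in the 4 libraries; points are libraries and bars exact 95% Poisson intervals. Pdk4 sits at 150 and 239 CPM in the mutant libraries dC10mut and tt, under 487 and 621 in NTG and control, and Map3k15 lies far above all others.

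A gene was called higher or lower when its log2 ratio was at least 1 in size and its interval excluded equality. Pdk4 was the 1 member called in dC10mut against NTG, of 8 with a count in that pair, where 4.33% of 8009 genes were called, 1.80% higher and 2.53% lower. It was also the 1 member called in tt against control, of 7 with a count, where 4.27% of 8226 genes were called, 2.69% higher and 1.58% lower. Deeper genes are called more often: among genes with at least 20 counts summed over the pair, 12.3% were called in the first pair (4.99% higher and 7.32% lower) and 11.1% in the second (6.99% higher and 4.08% lower). A share of 1 in 6 such members is thus near the background. Within those genes, 37 of 1763 had a ratio at or below that of Pdk4 in the first pair and 32 of 1861 in the second.

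Mutant libraries were also set against control libraries over both pairs at once, with the pair as a term, which leaves 1 residual degree of freedom. Pdk4 was lower by a log2 difference of -1.53 (SE 0.36, from the F statistic), with an adjusted p of 0.0216 (edgeR's quasi-likelihood test, Benjamini-Hochberg over 7343 genes), lower in 2 of 2 mutant libraries. It ranked 8 by p among 18 genes called, 0.245% of those tested. The test shares its estimate of spread between genes, so these p-values do not rest on replicates within a group. The call was lost with DESeq2 (log2 difference -1.51, adjusted p 0.998), without the pair term (edgeR, adjusted p 0.704) and over genes with a mean of at least 20 counts (edgeR, adjusted p 0.554). Xist and Tsix are among the genes called, and the same contrast separates the pools by Xist-locus counts.

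**Figure D2:**
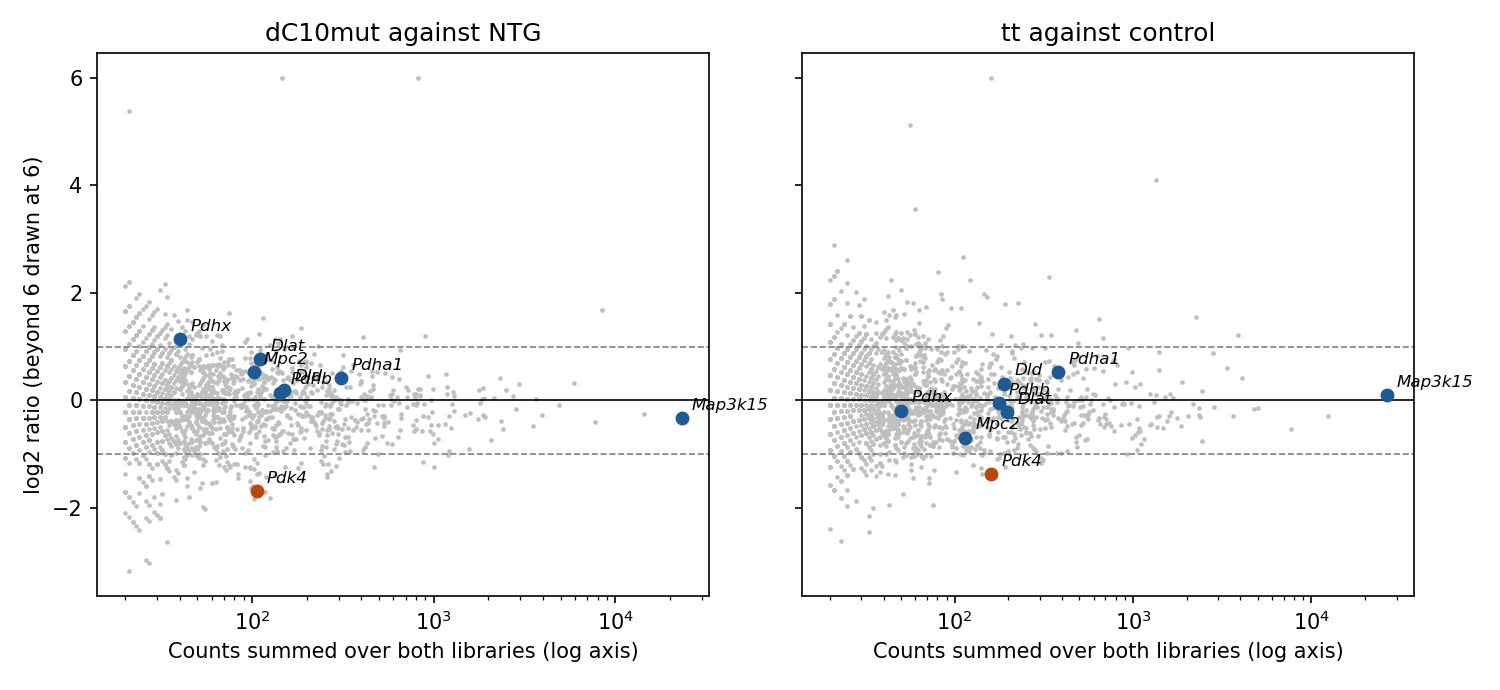
Log2 ratio against counts summed over both libraries (log axis) for genes with at least 20 such counts; grey points are other genes, blue points the genes of the switch, the orange point Pdk4, and dashed lines mark a log2 ratio of 1 in size. Pdk4 lies under the lower dashed line in both panels, at -1.68 and -1.37, with other genes around it.

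The row under the name of Pdha1, the E1 subunit that the kinase phosphorylates, was not lower in either mutant library. The facing Map3k15 row was lower in dC10mut than in NTG (log2 ratio -0.33, -0.37 to -0.30). Which of these rows holds the Pdha1 mRNA was not settled, within the limit on strand given above. The level of that mRNA is thus read from neither. The Pdha1 row held 121 counts in NTG and 188 in dC10mut, and 150 in control and 228 in tt, or 755, 1004, 824 and 1183 CPM. The mutant libraries were the higher of each pair, by a log2 ratio of 0.41 (0.07 to 0.75) in dC10mut against NTG and 0.52 (0.22 to 0.83) in tt against control. Neither reached the size of a call. Intervals that exclude equality at any size were found in 26.8% and 27.2% of genes with at least 20 counts in these pairs. Over both pairs the log2 difference was 0.47 (SE 0.30, edgeR adjusted p 0.997). In order of level (tt, dC10mut, control, NTG) no neighbours differed beyond counting error. Pdha1 is on the X chromosome, and the part of the Xist-locus difference between the pools in its level was not tested.

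Pdhb, the other E1 subunit (chr14:8165996-8173025, GRCm38), showed no difference beyond counting error. The NTG and dC10mut libraries held 62 and 80 counts of it, and control and tt 87 and 89. None of the 6 comparisons between libraries had an interval that excluded equality. The log2 ratio was 0.14 (-0.35 to 0.65) in dC10mut against NTG and -0.05 (-0.49 to 0.39) in tt against control, so a change of the size seen in Pdk4 lies outside both intervals.

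Dlat, the E2 core (chr9:50634633-50659780, GRCm38), stood out by its low NTG value. The NTG and dC10mut libraries held 37 and 74 counts of it, and control and tt 103 and 94, or 231, 395, 566 and 488 CPM. NTG was the low library: dC10mut exceeded it by a log2 ratio of 0.77 (0.19 to 1.39), while tt and control differed by -0.21 (-0.63 to 0.20). Between the control libraries, the Dlat level of control was 2.44-fold that of NTG (log2 ratio 1.28, 0.74 to 1.88), the 1 member of 7 called there, against 3.10% of 8126 genes, 1.40% higher. Among genes with at least 20 counts over these libraries, 126 of 1711 were called, and 1 of 6 members. The comparison of control with NTG crosses strain labels and shares its libraries with both pairs. The ratios of the pairs differed by 0.98 on the log2 scale (SE 0.35, 0.29 to 1.68).

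Of the subunits outside the 10 genes, Dld (E3) held 64, 86, 82 and 108 counts in NTG, dC10mut, control and tt, with log2 ratios of 0.20 (-0.28 to 0.69) and 0.31 (-0.11 to 0.75) in the pairs. Pdhx, the E3 binding protein, held 11, 29, 26 and 24 counts. As with Dlat, its low library was NTG, and it was higher in dC10mut by a log2 ratio of 1.14 (0.13 to 2.32) and at -0.19 (-1.06 to 0.66) in tt. Of the 6 subunit genes, with Pdha2 at 0 everywhere, 5 had at least 20 counts in each pair: 1 was higher and 0 lower in dC10mut, where 4.99% of genes at that depth were higher, and 0 were called in tt. Their median log2 ratio was 0.41 in the first pair and -0.05 in the second, where the median over all genes at that depth was -0.03 in each.

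Setting Pdk4 against the subunits within a library needs no scaling between libraries. Per 100 counts of Pdha1, Pdhb and Dlat together, Pdk4 held 35.5 in NTG (exact Clopper-Pearson 95% interval 27.0 to 46.1), 8.19 in dC10mut (5.36 to 12.0), 33.2 in control (26.6 to 41.2) and 11.2 in tt (8.07 to 15.2). The intervals of the control libraries overlapped, as did those of the mutant libraries, and none of a mutant library reached one of a control library. Leaving out Pdha1, the ratios to Pdhb and Dlat were 78.8 and 18.2 in NTG and dC10mut, and 59.5 and 25.1 in control and tt, again without overlap between the mutant intervals (11.7 to 27.3 and 17.8 to 34.9) and the control ones (57.8 to 107 and 46.7 to 75.5). Against Dld alone they were 122, 32.6, 138 and 42.6. These ratios were chosen after the counts were seen. Per kilobase of transcript, Pdk4 ran from 42.9 CPM in dC10mut to 178 in control, and Pdhb from 256 to 316 CPM, so the kinase row stood under that of the E1 beta subunit in every library.

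**Figure D3:**
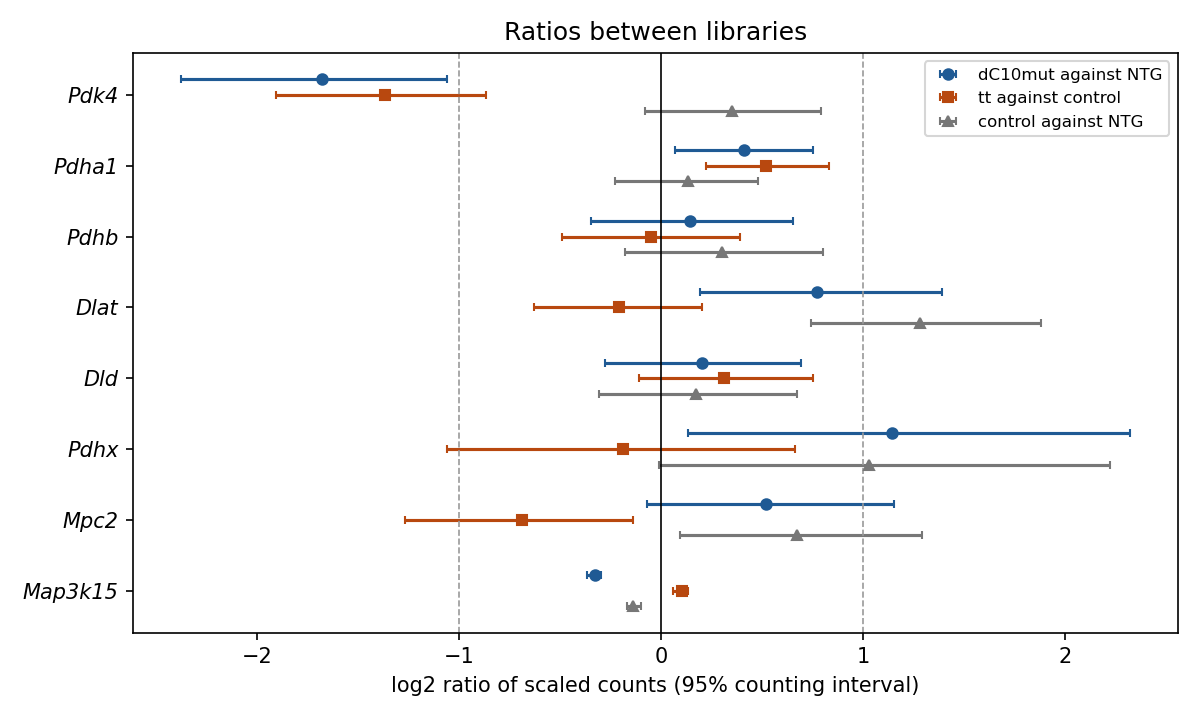
Log2 ratio of scaled counts for 8 genes in the 2 pairs and between the control libraries; bars are 95% counting intervals and dashed lines a log2 ratio of 1 in size. The upper ends of the Pdk4 bars lie at -1.06 and -0.87 in the mutant pairs, and Mpc2 and Dlat sit on opposite sides of 0 in the 2 pairs.

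Mpc2, the measured subunit of the pyruvate carrier (chr1:165460637-165481214, GRCm38), had ratios on opposite sides of equality in the pairs. The NTG and dC10mut libraries held 38 and 64 counts of it, and control and tt 69 and 45. The log2 ratio was 0.52 (-0.07 to 1.15) in dC10mut against NTG, an interval that includes equality, and -0.69 (-1.27 to -0.14) in tt against control. The ratios differed by 1.22 (SE 0.40, 0.43 to 2.00). NTG (237 CPM) and tt (234 CPM) were the low libraries and did not differ from each other beyond counting error (log2 ratio of tt to NTG -0.02, -0.68 to 0.64). Opposite Mpc1, the noncoding gene 4930506C21Rik, which shares 323 bases of its exons with Mpc1 exons, held 24, 16, 66 and 47 counts in NTG, dC10mut, control and tt, and Mpc1 itself held 0, 1, 0 and 0.

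Map3k15 was the most abundant transcript of the files in every library. Its row held 11983 (NTG), 11101 (dC10mut), 12362 (control) and 14012 (tt) counts, between 5.92% and 7.52% of a library. The gene (chrX:159988433-160123351, plus strand, GRCm38) runs toward Pdha1 (chrX:160122209-160138413, minus strand), and 603 bases of their exons overlap at the 3′ ends, out of a Map3k15 transcript of 4348 bp and a Pdha1 transcript of 2848 bp. The Map3k15 row exceeded the Pdha1 row 99.0-fold in NTG and 59.0-fold in dC10mut, and 82.4-fold in control and 61.5-fold in tt. Per kilobase, Map3k15 ran from 13639 to 17191 CPM and Pdha1 from 265 to 416 CPM.

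Reads from a gene and from its opposite-strand partner cannot be told apart in these files, as the use of strand in counting is not known, and the Map3k15 row is reported as a row and not as expression of Map3k15. It was lower in dC10mut than in NTG by a log2 ratio of -0.33 (-0.37 to -0.30), at 59303 against 74747 CPM, and higher in tt than in control by 0.10 (0.06 to 0.13), at 72724 against 67932 CPM. Its intervals are narrow because the counts are large, and both ratios are under the size of a call. The Pdha1 row was higher in both mutant libraries, so the facing rows did not move in step in the first pair.

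**Figure D4:**
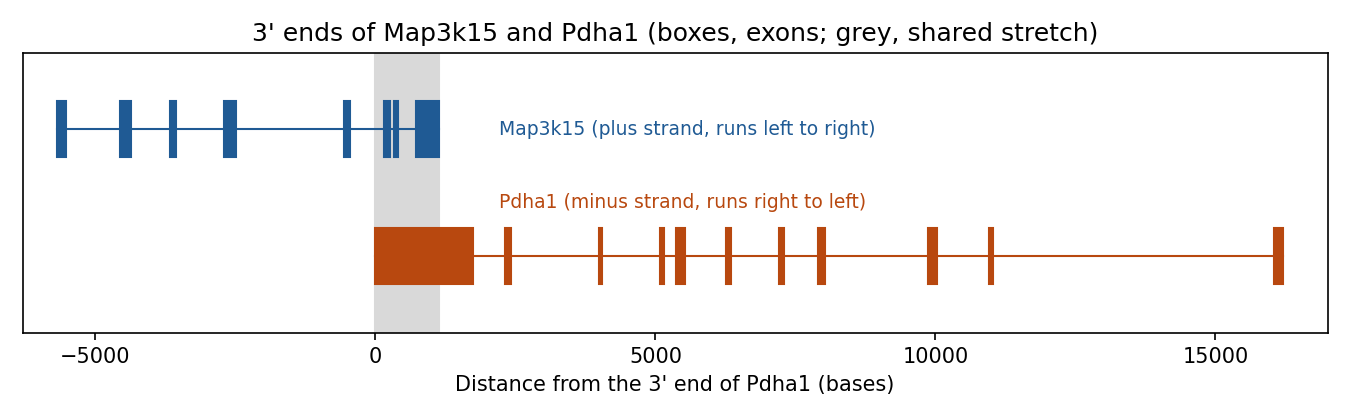
Exons of Map3k15 and Pdha1 by distance from the 3′ end of Pdha1 in bases; boxes are exons, the grey band is the stretch both genes cover, and the upstream part of Map3k15 is not drawn. The last Map3k15 exons lie within the last Pdha1 exon, where 603 exonic bases are shared.

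The wider pathway was read from lists given by counts and medians. Among the kinases Pdk3 held 1 count in all, in NTG, so Pdk4 was the only kinase of 4 with 20 counts in a pair. The phosphatase genes Pdp2 (2, 1, 1 and 4 counts in NTG, dC10mut, control and tt) and Pdpr, the regulatory subunit gene (1, 5, 5 and 8), were too low to compare. Of 9 genes that supply lipoate and thiamine cofactors, 4 were at 0 in all libraries, each with several transcripts. Nfs1, the cysteine desulfurase of iron-sulfur assembly, was the 1 of 5 with a count that was called, lower in dC10mut (17 and 7 counts, log2 ratio -1.44), where 2.53% of all genes and 7.32% of those with 20 counts were lower. It had 9 and 13 counts in control and tt.

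Related 2-oxoacid dehydrogenases had 0 members called in either pair, of 3 and 4 with 20 counts, where 12.3% and 11.1% of genes were called, so that 0 is near the background. Dlst, the E2 of 2-oxoglutarate dehydrogenase and a paralogue of Dlat, held 34, 76, 71 and 81 counts in NTG, dC10mut, control and tt (log2 ratios 0.93 and 0.11 in the pairs), with NTG low as for Dlat. Ogdhl, an isoform of its E1, had 19, 34, 38 and 20 counts, and Bckdha, the E1 alpha subunit of the branched-chain complex, 27, 30, 39 and 21. Over the 3 members with 20 counts in the first pair the median log2 ratio was 0.60, and over 4 in the second -0.72, against -0.03 for all genes at that depth in each. Other genes that handle pyruvate or its product also had 0 called, of 3 with 20 counts in each pair, again near those shares. Citrate synthase (Cs) held 84, 108, 109 and 136 counts, and Slc16a1, the lactate and pyruvate transporter MCT1, 28, 51, 60 and 48. Lactate dehydrogenase genes Ldha and Ldhb were among 5 genes of this list at 0 in all libraries. All 5 have several transcripts in the files, and nothing is read from their zeros.

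Fatty acid genes known as PPAR-alpha targets had median ratios close to those of all genes. Of 28, 11 had at least 20 counts in the first pair and 10 in the second, with 0 called in either direction in both. With 12.3% and 11.1% of all genes at that depth called, 0 is not far from the background, and nothing is read from it. Their median log2 ratio was 0.06 in dC10mut against NTG and 0.14 in tt against control, beside -0.03 over all genes at that depth in each. Lpl, lipoprotein lipase, held 976, 1170, 1107 and 1331 counts in NTG, dC10mut, control and tt (log2 ratios 0.04 and 0.18). Acadl held 197, 266, 286 and 326 counts, Acadm 160, 232, 165 and 228, and Hadha, the alpha subunit of the trifunctional protein, 183, 231, 179 and 255. Ucp3, the uncoupling protein of muscle mitochondria, was the member nearest to Pdk4, at 20, 12, 20 and 10 counts (log2 ratios -0.93 and -1.04), and was not called in either pair. Angptl4, Cpt1b and Cd36 held 0 or 1 count in every library, so these targets were not measured at this depth.

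Transcription factors known to act on Pdk4 were mostly out of range: 9 of 19 were at 0 in all libraries, all 9 with several transcripts in the files, among them Ppara, Ppargc1a and Nr3c1. Esrra, an orphan receptor of oxidative metabolism, held 12, 27, 24 and 20 counts in NTG, dC10mut, control and tt, and Foxo4 12, 5, 13 and 10. None was called. Of 20 FOXO and glucocorticoid response genes, 13 had a count in each pair. Called lower were 0 in either pair, where 2.53% and 1.58% of all genes were, so that 0 is near the background. In tt 2 were higher than in control, Klf9 (18 and 44 counts, log2 ratio 1.18) and Ccng2 (0 and 6 counts). In that pair 2.69% of all genes and 6.99% of those with 20 counts were higher. For both genes control was the low library: NTG and dC10mut held 38 and 58 counts of Klf9, and 2 and 4 of Ccng2. Klf9 was also called lower in control than in NTG (log2 ratio -1.24), where 3.10% of 8126 genes were called in either direction. The list's 4 members with at least 20 counts had a median log2 ratio of 0.34 in the first pair and 0.56 in the second. Trim63 and Fbxo32, ubiquitin ligases of muscle wasting under FOXO control, held 25, 26, 44 and 47 counts and 10, 19, 22 and 27 counts.

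**Figure D5:**
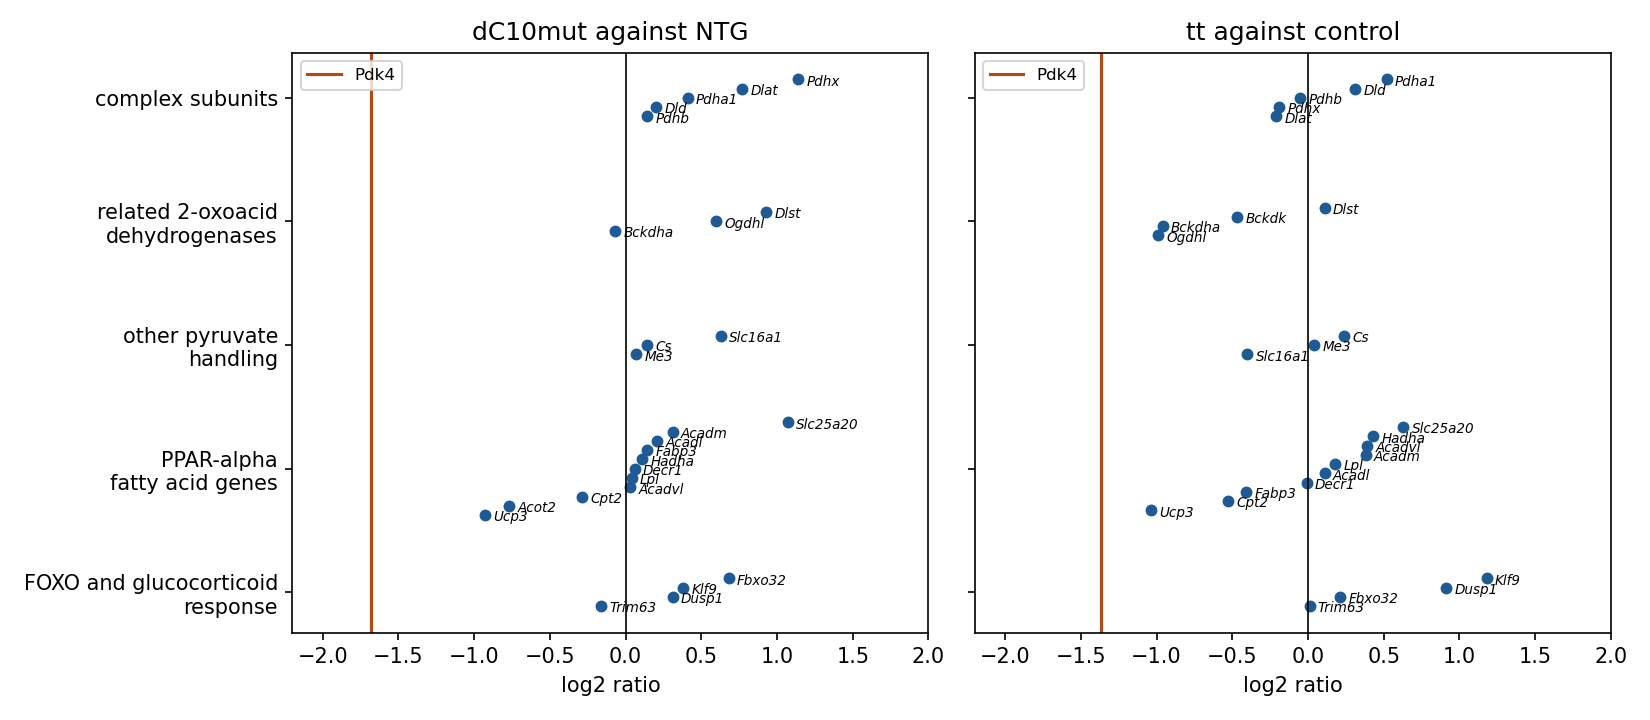
Log2 ratios of list members with at least 20 counts summed over the pair, by list; each point is a gene and the orange line is Pdk4. In both panels the points lie to the right of the Pdk4 line, with Ucp3 the leftmost of the PPAR-alpha list at -0.93 and -1.04.

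Other cell types were read from fixed markers, since Pdk4 is also expressed in fat and skeletal muscle. Adipocyte markers were at 0 in all 4 libraries (5 of 5, of which 3 have several transcripts), and skeletal muscle markers held 1 count in all. Myh6, the main myosin heavy chain gene of the adult mouse heart, was also at or near 0. Zeros of markers thus do not show that a cell type is absent. Endothelial markers, 4 of 6 with a count and Pecam1 and Egfl7 at 0, summed to 1391 CPM in NTG and 1223 in dC10mut, and to 1440 in control and 690 in tt, the lowest sum. Most of each sum was Fabp4, a fatty acid binding protein of capillaries that is also made in fat, with 154, 184, 203 and 102 counts in NTG, dC10mut, control and tt. Its log2 ratio was 0.03 in dC10mut against NTG and -1.07 in tt against control. The other endothelial markers were lower in the mutant library of both pairs, as Pdk4 was: Kdr, a receptor for VEGF, by log2 ratios of -0.56 and -1.34, the junction cadherin Cdh5 by -0.91 and -0.80, and the receptor Tie1 by -1.30 and -0.52. The median over the 4 was -0.74 and -0.93, against -0.11 and -0.05 for all genes with a count. Called lower in dC10mut were 0 of 4, where 2.53% of all genes were lower. In tt 2 of 4 were, Kdr and Fabp4, where 1.58% of all genes were lower. Of the 3 with at least 20 counts over the pair, 0 and 2 were lower, against 7.32% and 4.08% of genes at that depth. Fibroblast markers summed to 99.8, 48.1, 132 and 57.1 CPM in the same order, on 9 to 24 counts a library, with Postn at 0. Their sum was lower in the mutant library of each pair. In NTG and dC10mut it rested on Col1a1 (8 and 5 counts) and Col1a2 (7 and 2), neither called. Dcn held 1 and 2 counts there, and Pdgfra 0 in both. Of the 4 with a count, the collagen gene Col1a2 was called lower in tt (11 and 2 counts in control and tt, log2 ratio -2.27), where 1.58% of all genes were lower. The part of endothelial and fibroblast markers in the Pdk4 difference was not tested.

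Macrophage, smooth muscle and atrial markers had a different order over the libraries. Macrophage markers, 4 of 5 with a count and Adgre1 at 0, summed to 87.3, 214, 203 and 51.9 CPM in NTG, dC10mut, control and tt, mostly through Lyz2, a lysozyme gene, with 6, 28, 28 and 5 counts. Lyz2 was called higher in dC10mut (log2 ratio 1.92) and lower in tt (-2.45). Of all genes 1.80% were higher in dC10mut and 1.58% lower in tt, and of those with 20 counts 4.99% and 4.08%. The same shares stand beside the Acta2 and Nppa calls below. Smooth muscle and pericyte markers, 3 of 5 with a count and Myh11 and Pdgfrb at 0, summed to 618, 908, 852 and 670 CPM, and Acta2, smooth muscle actin, was called higher in dC10mut (6 and 24 counts, log2 ratio 1.70). Of 4 atrial markers Nppa alone held counts, 9, 22, 60 and 16 in NTG, dC10mut, control and tt, and was called lower in tt (log2 ratio -1.95). Nppa, the gene of atrial natriuretic peptide, is also made in stressed ventricle, and Myl7, Sln and Myl4 were at 0. In tt these lists and Pdk4 were all lower than in control, while in dC10mut they were higher than in NTG and Pdk4 was lower. Their part in the Pdk4 difference was not tested. Red blood cell markers were at 0 in all libraries (5 of 5), and nothing is read from these zeros. The cardiomyocyte markers summed to 28557, 34852, 27487 and 25821 CPM in the order NTG, dC10mut, control and tt. Most of each sum was Myl2 and Actc1. In dC10mut against NTG the log2 ratios were 0.33 for Myl2, 0.41 for Actc1 and 0.24 for Tnni3. They were -0.13 for Mybpc3, -0.06 for Ryr2, -0.37 for Ttn and -0.18 for Pln, and none was called. The part of cardiomyocyte markers in the Pdk4 difference was not tested.

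The 6 genes with the pattern most like that of Pdk4 were taken by distance between centred log2 levels over the 4 libraries, among 1067 other genes with a mean of at least 20 counts. They were Cox20, Gm29679, Gm13262, Fbxl2, Blk and Gm19710. Cox20, which helps assemble cytochrome c oxidase and faces Hnrnpu on the other strand, was the nearest, at a distance of 0.168, with 87, 31, 133 and 59 counts in NTG, dC10mut, control and tt, and the next was Gm29679 at 0.428. Cox20 was called with Pdk4 in the contrast over both pairs (log2 difference -1.46, edgeR adjusted p 0.0242). Among genes with at least 20 counts in each pair, 12 were lower in both by the same rule (9.3% of the 129 lower in dC10mut and 15.8% of the 76 lower in tt), Pdk4, Cox20, Gm29679 and Gm13262 among them.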

How the data were processed

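Poly(A) RNA of hearts was sequenced with a strand-keeping kit, per the labels' protocols. STAR, HTSeq and mm10 are named in the submitters' processing notes. Their versions, the counting mode and its strand setting are not given in the sources used here. Whole-number counts of reads for each RefSeq transcript, without normalization, were deposited.

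Of 41449 transcripts, 41252 matched a symbol in the RefSeq table (GRCm38.p6) and were summed per symbol. Unmatched transcripts held 1.33% to 2.21% of the counts and stayed in the library totals. Lengths, exons and gene positions came from GENCODE M21 (GRCm38). Counts were scaled by TMM (edgeR 4.0.16; factors 0.940, 0.999, 1.03 and 1.03 for NTG, dC10mut, control and tt). Log2 ratios used a prior count of 0.5 and conditional Clopper-Pearson 95% intervals. The contrast over both pairs used genes at 1 CPM in at least 2 libraries. DESeq2 1.42.0 was an alternative. Intervals and the floor of 3 counts for a 0 cover counting error only.

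Named were all 10 members, list members called in a mutant pair, some of the up to 4 most abundant of a list, the 6 genes most like Pdk4 and opposite-strand partners. Ucp3 and other list members outside that rule were named after their values were seen. Members and lists were chosen with earlier results of these data known. The labels do not say whether pooled hearts were littermates.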

Additional observations from a re-analysis of the deposited data

Results flagged for a closer look

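For 4 of 8 genes compared, 3 of them among the 10, the ratio of dC10mut to NTG and the ratio of tt to control differed by more than counting error allows. There is 1 library a group, so this difference has no replicate check. It was not computed over all genes, so whether 4 of 8 is an unusual share is not known. For Mpc2 the difference, first pair minus second, was 1.22 on the log2 scale, with a ratio above equality in the first pair and below it in the second. For Dlat it was 0.98, with the low NTG library in the first pair. For Pdhx, which is outside the 10 genes and also low in NTG, it was 1.34 (SE 0.64, 95% interval 0.07 to 2.60), on 11 to 29 counts a library. For Map3k15 it was -0.43, a small difference on the largest counts of the files.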

How the results depend on the processing

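The Pdk4 log2 ratio kept its direction and its call under all 6 alternatives in each mutant pair (other scalings, a prior count of 2, the most abundant transcript, and library totals without the Map3k15 row, the last chosen after seeing the data): it ran from -1.80 to -1.60 in dC10mut against NTG and from -1.40 to -1.34 in tt against control. The difference between the pairs kept its side under the other scalings. With 1.5-fold in place of 2-fold, 2 members were called in dC10mut against NTG (Dlat added), 2 in tt against control (Mpc2 added) and 2 in control against NTG (Mpc2 added), and 534 genes were called in tt against control, where 351 were at 2-fold. With at least 20 counts over the pair the genes called numbered 217, 206 and 126 in the same order, from 347, 351 and 252, since fewer genes are tested. TMM over genes with no opposite-strand exon moved the median of all genes in the first pair from -0.11 to -0.23, and the share of higher calls from 41.5% to 30.2%; library totals gave -0.03 and 50.4%. In control against NTG that share was 45.2%, 33.1% without opposite-strand genes and 65.0% with library totals.

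The contrast over both pairs called 18 genes, 11 with no filter on low counts, and 0 with DESeq2 (42 at an unadjusted p under 0.05), 0 without the pair term (465, edgeR) and 0 over genes with a mean of at least 20 counts (91, edgeR). The Pdk4 log2 difference in those last 3 settings was -1.51, -1.51 and -1.53, with adjusted p of 0.998 (DESeq2), 0.704 and 0.554 (edgeR); over all 5 alternatives the adjusted p ran from 0.0226 to 0.998. The cause was not tested. The labels carry no replicate numbers, so the pair term (the 2 libraries of a model and its control) was the only block that could be fitted. Of the 10 members, 4 stayed under 20 counts in every library and cannot be compared; all 4 have several transcripts, and the parts of depth and of reads shared between transcripts were not tested.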
